A study of Mus musculus with 6 samples.

Results

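The type 2 immunity signalling genes described here are 9 named genes of the mouse, Il33, Il1rl1, Il4ra, Il13ra1, Il2rg, Stat6, Gata3, Tgfb1 and Gsdmd, read over all libraries of a liver RNA-seq table. They were chosen by name, and all 9 were found among the 37991 Ensembl gene IDs. The livers came from 3 males without Zpbp2 (B6.Zpbp2-/-, Zpbp2 KO) and 3 C57BL/6J wild-type males (WT), all 12 weeks old and with no treatment named. Zpbp2 is best known for its protein in the sperm head, which takes part in binding the zona pellucida. The series title links its loss to a weaker asthmatic phenotype and to altered lipid metabolism, and asthma is the disease in which type 2 signalling is best known. The sources used here do not give which part of Zpbp2 the allele removes. The labels name no challenge of the airways or of the immune system in these animals.

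Type 2 immunity is the response that barrier tissues mount against worms and allergens. Stressed epithelial, endothelial and stromal cells release the alarmin IL-33, which binds its receptor ST2 (the product of Il1rl1) on innate lymphoid cells, mast cells and T helper cells, and these cells then make IL-4, IL-5 and IL-13 under the transcription factor GATA3. IL-4 and IL-13 signal through the IL-4 receptor alpha chain, paired either with the common gamma chain (Il2rg) or with IL-13 receptor alpha 1, and both receptors activate STAT6. In the liver, hepatocytes and macrophages respond to these cytokines, IL-33 is a known product of stellate and sinusoidal cells, and TGF-beta 1, which curbs T cells, drives the fibrosis that can follow. Gasdermin D, the pore protein of pyroptosis and a route by which cytokines of the IL-1 family leave cells, belongs to a gene family with other members beside Zpbp2 on chromosome 11.

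The stretch of DNA around the start of each gene is shown first for the alarmin, for its receptor and for 2 chains of the IL-4 receptor, because these genes differ in both sequence and transcript level. RefSeq (build GRCm38.p6) gave windows of 300 bases, 250 before and 50 after a start, for 8 of the 9 genes, with 2 starts each for Il33 and Il1rl1 and 10 windows in all. Letters are 5' to 3' on the strand of the gene. Capitals mark every match, on either strand, to one of 8 motifs. The STAT6 motif searched was TTC, any 4 bases, then GAA, and that of other STATs had any 3 bases in the gap. GATA factors were searched as AGATAA. The ETS motif was CCGGAAG. For SP1 the letters were GGGCGG. The TATA box was taken as TATAAA. Interferon response factors were searched as GAAA, any 2 bases, then GAAA. The NF-kB motif was GGG, any 2 bases, then TTTCC. Neighbouring or overlapping matches run together. The last 30 bases of the Il33 window at start 1 are in no GENCODE M21 transcript of the gene, whereas those of the other 9 windows are.
Il33, start 1, chr19:29924863-29925162, plus strand: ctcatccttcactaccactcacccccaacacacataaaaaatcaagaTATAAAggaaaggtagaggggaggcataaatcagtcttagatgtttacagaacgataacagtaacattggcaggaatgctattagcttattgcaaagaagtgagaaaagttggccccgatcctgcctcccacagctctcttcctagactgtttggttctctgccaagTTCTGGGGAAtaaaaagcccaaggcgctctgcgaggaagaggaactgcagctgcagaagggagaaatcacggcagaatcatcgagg
Il33, start 2, chr19:29945540-29945839, plus strand: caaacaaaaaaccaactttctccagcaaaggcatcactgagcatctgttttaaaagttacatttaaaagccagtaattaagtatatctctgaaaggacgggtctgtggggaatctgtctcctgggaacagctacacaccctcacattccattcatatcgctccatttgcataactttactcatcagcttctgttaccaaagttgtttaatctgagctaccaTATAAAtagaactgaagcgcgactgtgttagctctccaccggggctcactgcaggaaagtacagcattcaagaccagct
Il1rl1, start 1, chr1:40429320-40429619, plus strand: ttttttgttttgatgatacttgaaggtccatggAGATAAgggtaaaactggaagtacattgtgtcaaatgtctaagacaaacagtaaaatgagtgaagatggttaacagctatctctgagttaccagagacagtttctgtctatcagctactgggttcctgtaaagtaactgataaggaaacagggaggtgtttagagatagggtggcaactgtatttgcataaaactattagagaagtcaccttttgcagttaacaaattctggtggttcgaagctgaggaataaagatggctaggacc
Il1rl1, start 2, chr1:40439379-40439678, plus strand: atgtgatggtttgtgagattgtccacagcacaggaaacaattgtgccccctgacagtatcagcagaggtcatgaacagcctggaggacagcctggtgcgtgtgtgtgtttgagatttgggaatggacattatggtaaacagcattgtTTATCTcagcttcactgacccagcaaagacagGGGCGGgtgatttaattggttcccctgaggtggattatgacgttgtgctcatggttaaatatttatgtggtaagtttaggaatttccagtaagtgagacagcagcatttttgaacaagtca
Il4ra, chr7:125552021-125552320, plus strand: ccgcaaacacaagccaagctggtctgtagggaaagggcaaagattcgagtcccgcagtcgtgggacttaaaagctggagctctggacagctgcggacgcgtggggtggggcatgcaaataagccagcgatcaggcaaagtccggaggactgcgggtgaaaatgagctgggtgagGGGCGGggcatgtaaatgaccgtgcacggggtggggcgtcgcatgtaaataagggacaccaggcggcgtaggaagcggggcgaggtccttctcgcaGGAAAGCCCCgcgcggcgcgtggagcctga
Il2rg, chrX:101268206-101268505, minus strand: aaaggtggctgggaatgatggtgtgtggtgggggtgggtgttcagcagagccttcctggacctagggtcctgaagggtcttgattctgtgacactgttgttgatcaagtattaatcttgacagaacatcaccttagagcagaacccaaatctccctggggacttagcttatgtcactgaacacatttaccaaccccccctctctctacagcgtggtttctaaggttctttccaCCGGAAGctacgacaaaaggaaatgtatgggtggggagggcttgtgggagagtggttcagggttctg

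The windows of the receptor gene Il1rl1 held few CpG dinucleotides, those of Il33 were a little under the median, and those of Il4ra and Il13ra1 held many. Il33 had 6 CpGs at start 1 and 5 at start 2, and Il1rl1 had 1 and 3, against a median of 7 over all 32851 RefSeq windows of this length. Il2rg had 3. Il4ra had 25 and Il13ra1 28, and Tgfb1 had the most, 30. The count of CpGs did not order the genes by level: Gata3 had 22 CpGs and almost no transcript in liver, and Stat6 had 8 CpGs and the highest level of the set, as given below.

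Single motifs were found in a few of the windows and are a description only. A STAT6 motif stood in the Il33 window of start 1, from 36 bases before the start, and in none of the other 9 windows, and 6.95% of all windows hold one. A TATA box lay 29 bases before start 2 of Il33, where TATA boxes usually lie, and another 203 bases before start 1 (13.6% of all windows). Both Il1rl1 windows held a GATA motif, from 217 bases before start 1 and from 103 bases before start 2 (11.2% of all windows). The Il2rg window had an ETS motif from 17 bases before its start (8.86% of all windows). The NF-kB motif of Il4ra began 20 bases after the start (1.63% of all windows). SP1 motifs were matched at 6 places in Tgfb1, 3 in Il13ra1, of which 2 overlap by 1 base, 2 in Gata3 and 1 each in Il4ra and start 2 of Il1rl1 (35.7% of all windows hold at least 1). None of the 10 windows matched the motif of other STATs or that of interferon response factors (8.30% and 3.44% of all windows). Stat6 had no match to any of the 8 motifs in its window, which says only that these letters are not there.

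Total counts per library ran from 47821653 to 51328826 in Zpbp2 KO and from 37904891 to 52955687 in WT livers, and a count of 0 allows up to 3 counts, at most 0.0791 CPM (counts scaled to a common library total). Zpbp2 had 0 counts in each Zpbp2 KO library and 4, 13 and 7 counts in the WT libraries, as the labels say. The labelled tissue was borne out by hepatocyte markers, all 8 of them detected, with a summed level of 103000 to 107000 CPM in Zpbp2 KO and 90200 to 101000 CPM in WT livers. One library stood apart in its levels of Kupffer cell and endothelial markers. Zpbp2 KO replicate 2 had the lowest level of all 6 livers for 8 of 8 Kupffer cell and macrophage markers and 8 of 8 liver endothelial markers, whereas it was the lowest liver for 24.0% of the 14686 genes tested. Its summed Kupffer marker level was 130 CPM, against 395 and 430 CPM in the other Zpbp2 KO livers and 236 to 336 CPM in WT livers. Its summed endothelial marker level was 148 CPM, against 363 and 274 CPM in the other Zpbp2 KO livers and 238 to 323 CPM in WT livers. Values without this library are therefore given as well.

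None of the 9 genes differed between the genotypes beyond the spread between livers. Of the 9, 7 passed the filter on low counts (edgeR's filterByExpr), and 0 of these 7 were called in Zpbp2 KO against WT livers by edgeR's quasi-likelihood test at an adjusted p below 0.05, as were 0 by DESeq2 and 0 by limma-voom. Of all tested genes edgeR and limma-voom each called 0.0136%, and DESeq2 called 0.518% of those to which it gave an adjusted p. At an unadjusted p below 0.05 edgeR had 0 of the 7, against 5.79% of all tested genes. The groups overlapped for all 7, and for Il1rl1 and Gata3 too, while 11.6% of tested genes showed no overlap. The log2 fold changes had a median of -0.06 over the 7 genes, with 3 above 0, beside a median of 0.01 over all tested genes, 52.9% of which were above 0. The two-sided exact permutation test over 3 livers against 3, which cannot go below p = 0.1, gave p = 0.2 to 0.9 for the 9 genes.

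Per kilobase of exon the 9 genes spanned a range from ample to almost none. Stat6 stood highest, at 16.5 ± 1.02 CPM per kilobase in Zpbp2 KO and 17.2 ± 0.241 CPM per kilobase in WT livers (SD, n = 3 each). Gsdmd followed at 15.7 ± 0.767 in Zpbp2 KO and 14.9 ± 0.312 CPM per kilobase in WT livers, then Il13ra1 at 10.9 ± 0.640 in Zpbp2 KO and 9.995 ± 1.15 CPM per kilobase in WT livers. Il4ra averaged 5.62 ± 0.492 in Zpbp2 KO and 5.92 ± 0.791 CPM per kilobase in WT livers. Tgfb1 lay lower, at 1.89 ± 0.767 CPM per kilobase in Zpbp2 KO and 1.98 ± 0.490 CPM per kilobase in WT livers. Il2rg (1.05 ± 0.442 in Zpbp2 KO and 0.691 ± 0.119 CPM per kilobase in WT livers) and Il33 (0.546 ± 0.143 in Zpbp2 KO and 0.712 ± 0.104 CPM per kilobase in WT livers) were close to each other. Gata3 and Il1rl1 were at the bottom, at most 0.0722 and 0.0139 CPM per kilobase in any liver.

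Most steps in this order were larger than the spread between livers. Over all 6 livers the ranges of neighbours were apart for Gsdmd and Il13ra1, Il13ra1 and Il4ra, Il4ra and Tgfb1, Il33 and Gata3, and Gata3 and Il1rl1. They overlapped for Stat6 and Gsdmd, for Tgfb1 and Il2rg, although the first was above the second in 6 of 6 livers in both cases, and for Il2rg and Il33, where Il2rg was above in 4 of 6 livers. Several of these values depended on the length used. With the longest transcript in place of all merged exons, Gsdmd averaged 20.3 and Stat6 19.6 CPM per kilobase over 6 livers, and Gsdmd was above in 3 of 6. Il2rg was then above Il33 in 6 of 6 livers. Tgfb1 averaged 3.78 CPM per kilobase by the longest transcript and 1.93 by merged exons, in the same place of the order.

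**Figure D1:**
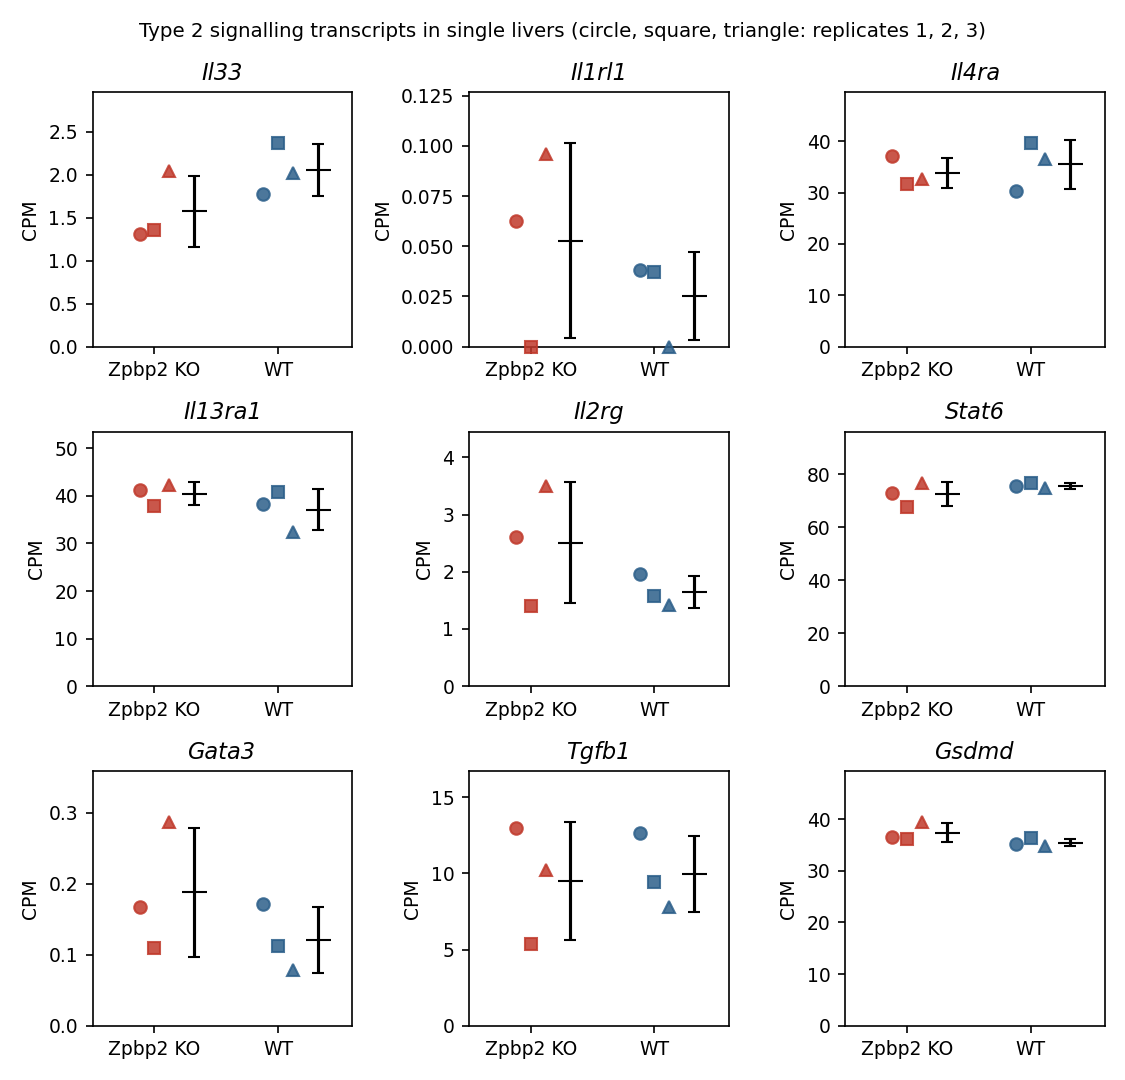
CPM of the 9 signalling genes in each liver, with Zpbp2 KO livers in red and WT livers in blue (circle, square and triangle are replicates 1, 2 and 3), and the mean with SD of 3 livers in black. The 2 groups overlap in every panel, and Il1rl1 and Gata3 stay below 0.3 CPM.

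Among the ligands, the alarmin gene Il33 (ENSMUSG00000024810, chromosome 19) was transcribed at a low level in every liver. It had 1.32, 1.36 and 2.05 CPM in Zpbp2 KO livers, against 1.77, 2.37 and 2.02 CPM in WT livers, from 62 to 107 counts and from 77 to 127 counts a library. Replicates 1 and 2 of the knockout were the lowest livers of the series and replicate 3 lay among the WT values. The log2 fold change was -0.38 ± 0.250 (SE), with a 95% interval of -0.95 to 0.19, and edgeR's Benjamini-Hochberg adjusted p was 0.798. A fall to 0.516 of the WT level and a rise to 1.14 times it are thus both within the interval. Without Zpbp2 KO replicate 3, which held the knockout's highest value, the log2 fold change was -0.62 and edgeR's adjusted p 0.345, the lowest over the 14 alternatives and 7 tested genes. Without Zpbp2 KO replicate 2 it was -0.29.

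The other ligand of the set, TGF-beta 1 (Tgfb1, ENSMUSG00000002603, chromosome 7), varied among animals within both genotypes. It had 12.99, 5.35 and 10.2 CPM in Zpbp2 KO livers, against 12.7, 9.41 and 7.81 CPM in WT livers. Zpbp2 KO replicate 2 was the lowest liver and Zpbp2 KO replicate 1 the highest, so the WT livers lay inside the range of the knockout. The log2 fold change was -0.07 ± 0.311, with a 95% interval of -0.78 to 0.65 (adjusted p = 0.979 by edgeR). Without Zpbp2 KO replicate 2 it was 0.22, with the sign turned and no call (adjusted p = 0.893), and without WT replicate 1 it was 0.14. The level of Tgfb1 in that low liver went with the low endothelial and Kupffer marker levels given above. From the highest to the lowest liver, the order for Tgfb1 was Zpbp2 KO 1, WT 1, Zpbp2 KO 3, WT 2, WT 3 and Zpbp2 KO 2, and that of the summed endothelial markers differed from it only by the places of WT 2 and WT 3. The summed stellate cell and fibroblast markers put the livers in the same order as the endothelial ones. In bulk tissue, fewer cells of a type and less RNA per cell cannot be told apart. The part of cell makeup in these values was not tested.

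The receptor for IL-33 was all but absent. Il1rl1 (ENSMUSG00000026069, chromosome 1), which encodes ST2, had 3, 0 and 5 counts in Zpbp2 KO livers and 2, 2 and 0 counts in WT livers. The summed 8 counts of the knockout correspond to 0.0543 CPM (exact Poisson interval 0.0235 to 0.107) and the summed 4 counts of WT to 0.0281 CPM (0.00765 to 0.0719). These intervals cover counting error only, and they overlap. No difference was detectable at this depth, and the gene was below the filter of the test. Il1rap, the accessory chain that ST2 shares with the IL-1 receptor, was by contrast the most abundant tested gene on the list of type 2 receptors, at 13.3 ± 1.52 CPM per kilobase in Zpbp2 KO and 12.3 ± 0.448 CPM per kilobase in WT livers (log2 fold change 0.11 ± 0.106).

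The chains that bind IL-4 and IL-13 were transcribed well in both groups. Il4ra (ENSMUSG00000030748, chromosome 7), the chain common to both receptor types, had 37.1, 31.6 and 32.6 CPM in Zpbp2 KO livers, against 30.3, 39.7 and 36.6 CPM in WT livers. The lowest and the highest liver were both WT. The log2 fold change was -0.07 ± 0.126, with a 95% interval of -0.36 to 0.22 (adjusted p = 0.917 by edgeR), and it was 0.01 without WT replicate 2. Il13ra1 (ENSMUSG00000017057, chromosome X) encodes the partner chain that binds IL-13. It had 41.3, 37.8 and 42.3 CPM in Zpbp2 KO livers, against 38.2, 40.7 and 32.4 CPM in WT livers. WT replicate 3 alone lay apart from the rest, at the low end. Its log2 fold change was 0.12 ± 0.114, with a 95% interval of -0.14 to 0.38 (adjusted p = 0.842 by edgeR), and was 0.02 without WT replicate 3. Without Zpbp2 KO replicate 2 the log2 fold changes were -0.03 for Il4ra and 0.17 for Il13ra1.

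The common gamma chain gene Il2rg (ENSMUSG00000031304, chromosome X), which lymphocytes need for signals of IL-2, IL-4, IL-7, IL-9, IL-15 and IL-21, had the log2 fold change farthest from 0 of the 7 tested genes, with the widest interval. It had 2.61, 1.40 and 3.51 CPM in Zpbp2 KO livers, against 1.96, 1.57 and 1.42 CPM in WT livers. Zpbp2 KO replicates 1 and 3 were the highest livers of the series and Zpbp2 KO replicate 2 the lowest, just under WT replicate 3. The log2 fold change was 0.60 ± 0.333, with a 95% interval of -0.16 to 1.37 (unadjusted p = 0.106, adjusted p = 0.798 by edgeR), a fold of 1.52 with bounds of 0.895 and 2.58. Without Zpbp2 KO replicate 2 it was 0.89 (adjusted p = 0.644), and without Zpbp2 KO replicate 3 it was 0.28, so the size rested on single livers.

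Among the leukocyte markers, those of Kupffer cells moved with Il2rg and the others did so in part. The summed Kupffer cell and macrophage markers put the 6 livers in the same order as Il2rg, from Zpbp2 KO 3 and Zpbp2 KO 1 through WT 1, WT 2 and WT 3 to Zpbp2 KO 2. B cell markers summed to 4.98 to 9.79 CPM in Zpbp2 KO and 4.11 to 6.56 CPM in WT livers, with 6 of 6 tested markers above 0 and 1 at an unadjusted p below 0.05. T cell markers summed to 5.63 to 6.17 CPM in Zpbp2 KO and 4.07 to 5.24 CPM in WT livers, with 8 of 9 above 0 and 0 at that p. Of all tested genes, 52.9% were above 0 and 5.79% had an unadjusted p below 0.05 by edgeR. In the low liver for Il2rg, Zpbp2 KO 2, the T cell sum was above that of every WT liver. Cd4 made up 2.83 CPM of that sum, with 1.49 to 2.83 CPM in Zpbp2 KO and 1.07 to 2.39 CPM in WT livers. Cd3e, Cd3d, Cd3g, Trac and Trbc2 were lower in Zpbp2 KO 2 than in WT 1 and WT 3. Trbc1, Lck and Cd8a were there below WT 1 and above WT 3. WT 2 was the lowest liver for the T, B and NK cell sums. NK cell and ILC1 markers summed to 2.39 to 4.73 CPM in Zpbp2 KO and 2.22 to 3.91 CPM in WT livers. The part of these cells in the level of Il2rg was not tested. In a comparison of all genes, 0 markers of any of the 12 cell type lists were called by edgeR.

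**Figure D2:**
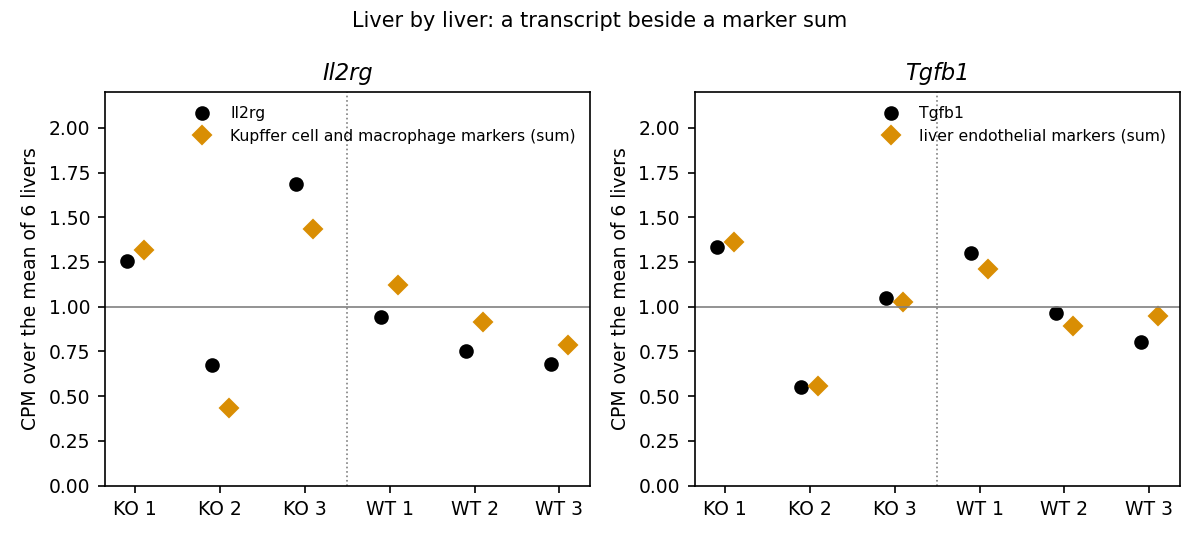
Level of Il2rg beside the summed Kupffer cell and macrophage markers (left) and of Tgfb1 beside the summed liver endothelial markers (right), each as CPM divided by its own mean over the 6 livers. Zpbp2 KO 2 lies lowest for all 4 quantities, and the dotted line parts Zpbp2 KO from WT livers.

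Other receptor chains gave no call. Of the 6 partners of the common gamma chain 4 were tested, 0 were called and 0 had an unadjusted p below 0.05, although 4 of 4 log2 fold changes were above 0 with a median of 0.50. Il15ra, which presents IL-15 to lymphocytes, was the most abundant, at 8.02 ± 1.15 CPM per kilobase in Zpbp2 KO and 6.62 ± 0.357 CPM per kilobase in WT livers, a log2 fold change of 0.28 ± 0.125 (unadjusted p = 0.0566). Il21r, the IL-21 receptor, had 0.544, 0.482 and 0.785 CPM in Zpbp2 KO livers, against 0.591, 0.392 and 0.210 CPM in WT livers (0.58 ± 0.396). The list of type 2 receptors and accessory chains had 8 tested genes of 10, with 0 called, 5 above 0 and a median log2 fold change of 0.07. Its smallest p-values were those of Crlf2, a chain of the TSLP receptor (-0.24 ± 0.140, unadjusted p = 0.120), and Sigirr, which restrains IL-1 family receptors (0.26 ± 0.159, unadjusted p = 0.136).

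STAT6 is the transcription factor behind these receptors. Stat6 (ENSMUSG00000002147, chromosome 10) had 73.0, 67.7 and 76.7 CPM in Zpbp2 KO livers, against 75.5, 76.8 and 74.7 CPM in WT livers. Zpbp2 KO replicates 1 and 2 were the lowest livers, below the narrow WT range, and replicate 3 lay inside it. The log2 fold change was -0.06 ± 0.0904, with a 95% interval of -0.27 to 0.14 (adjusted p = 0.892 by edgeR), which puts the knockout level between 0.829 and 1.10 times that of WT. It was -0.02 without Zpbp2 KO replicate 2. In GENCODE M21, 40 of its 4402 exonic bases are shared with Nab2 on the opposite strand, and the sources used here do not give whether the counting used strand. Of Il4ra, 571 of 6002 are shared with Gm44876 on the opposite strand, which is not among the counted IDs. Of Gata3, 155 of 3978 are shared with Gm13256 on the opposite strand and 77 with 9230102O04Rik on the same strand. Of Il2rg, 728 of 2387 exonic bases are shared with Gm20489 on the same strand, which had 0 counts. The sources used here do not give how reads over both genes were counted, so the level of Il2rg may be understated.

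**Figure D3:**
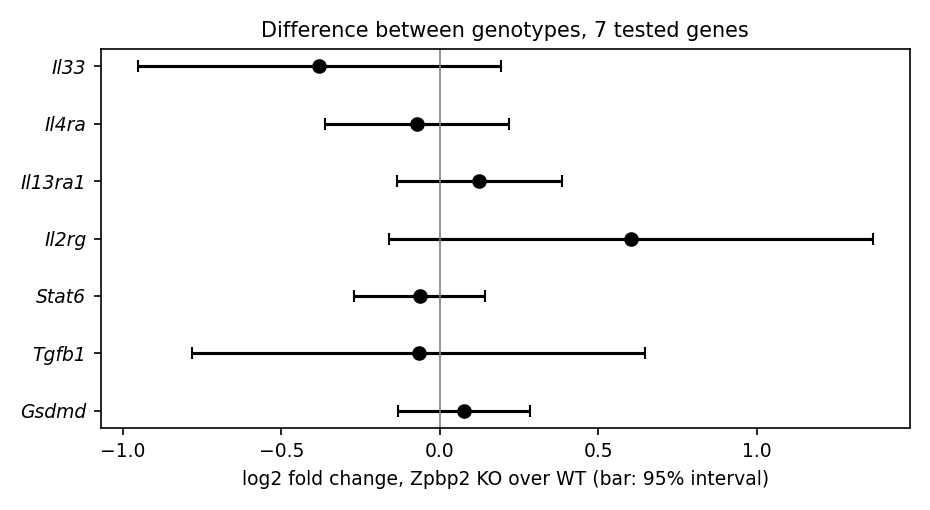
Log2 fold change of the 7 tested signalling genes, Zpbp2 KO over WT, with the 95% interval of edgeR's quasi-likelihood fit. Every interval contains 0, and those of Stat6 and Gsdmd are the narrowest while those of Il2rg and Tgfb1 are the widest.

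Most genes that carry or curb the signal next to STAT6 had a log2 fold change below 0. Over all tested genes 52.9% were above 0. Of the 15 genes for Janus kinases, SOCS proteins and the IL-33 relay, all tested, 0 were called by edgeR, 12 had a log2 fold change below 0 (median -0.11), and an unadjusted p below 0.05 was found for 0 higher and 2 lower genes, against 2.86% and 2.93% of all tested genes. Scaled by library totals in place of TMM, 335 of all tested genes were higher and 519 lower at that p, beside 420 and 430. The 2 were Irs2, the adaptor that IL-4 and insulin receptors share, and Ptpn11, the phosphatase SHP2. Irs2 had 10.8, 5.70 and 13.8 CPM in Zpbp2 KO livers, against 29.0, 27.5 and 15.0 CPM in WT livers, with no overlap. Its log2 fold change was -1.24 ± 0.342 (unadjusted p = 0.00637, adjusted p = 0.677 by edgeR), and DESeq2 called it (adjusted p = 0.0284). Leaving out 1 liver at a time moved it between -1.53 and -0.96. Ptpn11 had 64.6 to 76.3 CPM in Zpbp2 KO and 80.5 to 91.6 CPM in WT livers (-0.27 ± 0.103, unadjusted p = 0.0304). At the other end of the list, Cish had a log2 fold change of 0.90 ± 0.586 (unadjusted p = 0.163 by edgeR). Irak1, a kinase of the IL-33 relay, was the most abundant of the list per merged exons, at 16.8 ± 0.654 CPM per kilobase in Zpbp2 KO and 17.2 ± 1.18 CPM per kilobase in WT livers. Per longest transcript the kinase gene Jak1 was higher, at 22.5 in Zpbp2 KO and 24.3 CPM per kilobase in WT livers, against 20.7 and 21.1 for Irak1 in these groups.

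Targets of STAT6 gave no common direction. Of 16 genes on the list of STAT6 targets and alternative macrophage activation 10 were tested, 5 were above 0, the median log2 fold change was 0.03, and 0 were called or had an unadjusted p below 0.05. Arginase 1 (Arg1), a STAT6 target in macrophages, is also a urea cycle enzyme of hepatocytes. It had 536 ± 47.3 CPM per kilobase in Zpbp2 KO and 480 ± 36.0 CPM per kilobase in WT livers. Its highest liver, at 1311 CPM, was Zpbp2 KO 2, where the summed Kupffer cell and macrophage markers were lowest, at 130 CPM. The part of each cell type in the level of Arg1 was not tested. The smallest p-values were those of Fcer2a, the low-affinity IgE receptor of B cells (0.57 ± 0.278, unadjusted p = 0.0720), and Ccl24, an eosinophil chemokine (0.71 ± 0.430, unadjusted p = 0.138). Ccl24 had 3.07, 0.899 and 2.18 CPM in Zpbp2 KO livers, against 1.62, 0.897 and 1.26 CPM in WT livers, with WT 2 and Zpbp2 KO 2 the lowest. Retnla and Chil3, classical markers of alternative activation, had at most 8 and 11 counts in any library.

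Gata3 (ENSMUSG00000015619, chromosome 2), the master factor of type 2 lymphocytes, was barely detected. It had 8, 5 and 15 counts in Zpbp2 KO livers and 9, 6 and 3 counts in WT livers, which is 0.167, 0.110 and 0.287 CPM in Zpbp2 KO, against 0.172, 0.112 and 0.0786 CPM in WT. The knockout's summed 28 counts gave 0.190 CPM (exact Poisson interval 0.126 to 0.275) and the 18 of WT 0.126 CPM (0.0749 to 0.200). Only Zpbp2 KO replicate 3 lay above all WT livers. The gene was below the filter. Fitted without any filter, its log2 fold change was 0.62 ± 0.539 and that of Il1rl1 0.93 ± 1.10, with adjusted p-values of 0.806 and 0.834 by edgeR.

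Among other factors of the type 2 lineages and the GATA family, Gfi1 and Bcl11b lay below Gata3 per kilobase and the rest above it. Of 12 genes 11 were tested, 5 were above 0 and 0 were called. An unadjusted p below 0.05 by edgeR was reached by 2 lower genes, beside 2.93% of all tested genes lower at that p. Zfpm1, a cofactor of GATA proteins, was the most abundant, at 20.1 ± 1.26 CPM per kilobase in Zpbp2 KO and 23.1 ± 3.54 CPM per kilobase in WT livers. Gata6 had 6.31, 5.20 and 6.36 CPM in Zpbp2 KO livers, against 7.51, 7.53 and 8.70 CPM in WT livers, without overlap (-0.41 ± 0.153, unadjusted p = 0.0275, adjusted p = 0.798 by edgeR). Bcl6, a repressor that opposes GATA3 in T cells and is also rhythmic and growth hormone-responsive in liver, had 22.0, 24.1 and 14.5 CPM in Zpbp2 KO livers, against 68.4, 15.2 and 74.7 CPM in WT livers (-1.39 ± 0.504, unadjusted p = 0.0242). WT replicates 1 and 3 were high and WT replicate 2 lay inside the knockout range.

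The cytokines that the type 2 cells would make were at or near 0 counts. On the list of type 2 cytokines and alarmins 0 of 8 genes passed the filter. Il5, Il9 and Il25 had 0 counts in all 6 libraries, and Il13 had 1 count, in Zpbp2 KO replicate 1. Il4 had 3, 0 and 2 counts in Zpbp2 KO livers and 2, 0 and 0 counts in WT livers. Tslp, an alarmin of epithelia, had 7, 7 and 3 counts in Zpbp2 KO livers and 3, 6 and 2 counts in WT livers.

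Markers of the cells that carry ST2 and GATA3 ranged from 0 to abundant. Of 9 ILC2 markers Il5 was at 0, Il13 and Areg had at most 1 and 5 counts a library, Klrg1 had 0 to 3 and Il7r 8 to 28. The other ILC2 markers were well detected. Il17rb, the receptor chain for IL-25, had 8.31 to 11.3 CPM in Zpbp2 KO and 9.94 to 15.8 CPM in WT livers. Rora, a nuclear receptor that hepatocytes also express, had 59.5 to 83.6 CPM in Zpbp2 KO and 72.9 to 101 CPM in WT livers. Kit had 3.99 to 6.65 CPM in Zpbp2 KO and 4.25 to 6.58 CPM in WT livers. The list's summed level, 1210 to 1380 CPM in Zpbp2 KO and 1080 to 1230 CPM in WT livers, was nearly all Arg1. Of 8 eosinophil markers 3 were at 0 (Epx, Ear1 and Ear6), with sums of 0.965 to 2.80 CPM in Zpbp2 KO and 1.20 to 2.84 CPM in WT livers, most of it Ear2, which macrophages also express. Of 9 mast cell and basophil markers Mcpt8 was at 0, with sums of 6.53 to 9.72 CPM in Zpbp2 KO and 6.13 to 8.98 CPM in WT livers that came mainly from Kit and Hdc, and Cpa3 had at most 2 counts.

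**Figure D4:**
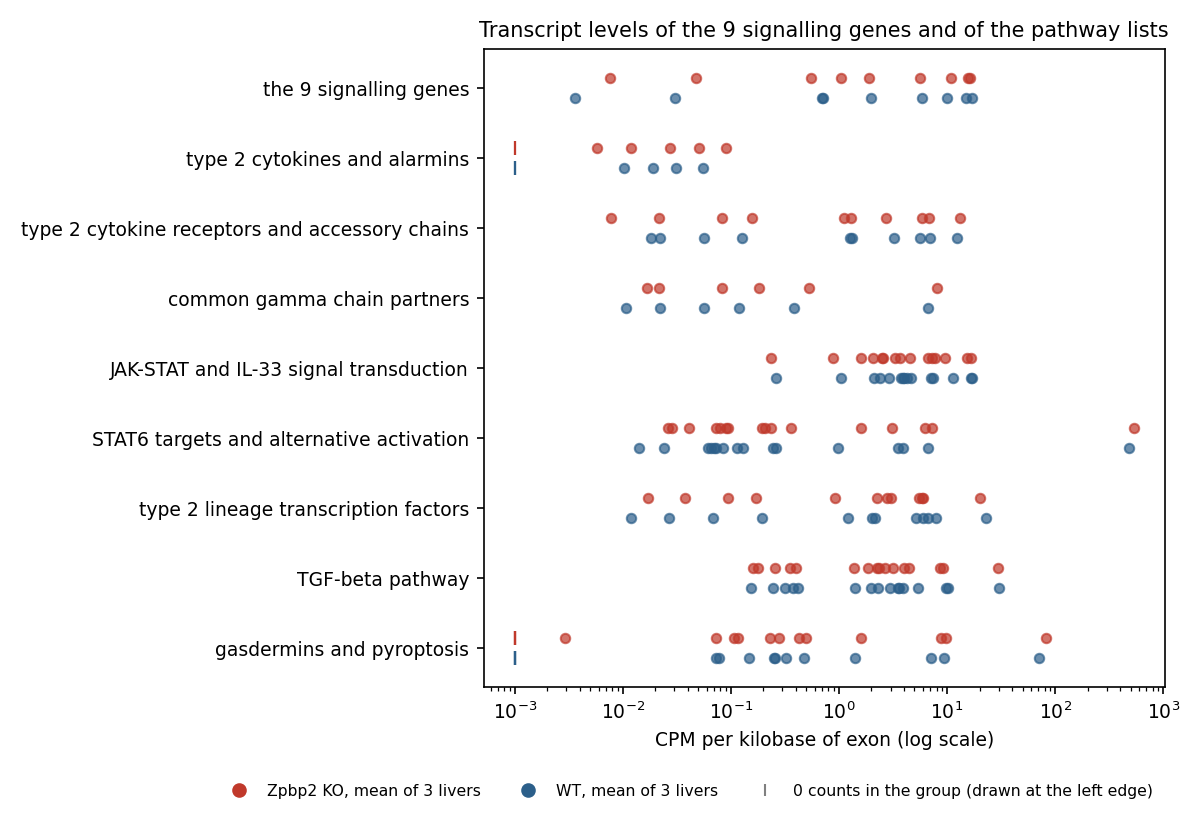
Mean CPM per kilobase of exon (log scale) of the 9 signalling genes and of each gene on the 8 pathway lists, with Zpbp2 KO means in red above WT means in blue. The cytokine list lies below 0.1 CPM per kilobase, whereas most genes of the JAK-STAT and IL-33 signal transduction list lie above 1.

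Gsdmd (ENSMUSG00000022575, chromosome 15), whose product gasdermin D forms pores once inflammatory caspases cleave it, varied little. It had 36.5, 36.2 and 39.5 CPM in Zpbp2 KO livers, against 35.3, 36.3 and 34.9 CPM in WT livers. Zpbp2 KO 3 and Zpbp2 KO 1 were the highest livers and Zpbp2 KO 2 lay just under WT replicate 2. The log2 fold change was 0.08 ± 0.0902, with a 95% interval of -0.13 to 0.28 (adjusted p = 0.867 by edgeR), or 0.913 to 1.22 times the WT level. It was 0.10 without Zpbp2 KO replicate 2.

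Most other gasdermins were at 0 counts. Gsdma, Gsdma2 and Gsdma3, the family members next to Zpbp2, had 0 counts in all 6 libraries, as had Gsdmc2, Gsdmc3 and Gsdmc4, and Gsdmc had 1. Gsdme was low, at 0.0722 CPM per kilobase in Zpbp2 KO and 0.0771 CPM per kilobase in WT livers. On the whole list of gasdermins and pyroptosis genes 10 of 18 genes were tested. Of these, 8 were above 0 (median log2 fold change 0.18) and 0 were called. A single gene had an unadjusted p below 0.05 by edgeR, higher in Zpbp2 KO, beside 2.86% of all tested genes higher at that p. That one was Irf2, a transcription factor that Gsdmd needs in mouse macrophages, with 59.3, 73.0 and 64.8 CPM in Zpbp2 KO livers, against 55.9, 52.7 and 47.9 CPM in WT livers, without overlap (0.33 ± 0.112, unadjusted p = 0.0175, adjusted p = 0.798 by edgeR). Ninj1, which ruptures the membrane after gasdermin pores form, was the most abundant, at 82.7 ± 10.1 CPM per kilobase in Zpbp2 KO and 70.9 ± 1.33 CPM per kilobase in WT livers, and its groups did not overlap either (0.22 ± 0.108, unadjusted p = 0.0724).

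Around Tgfb1 edgeR called none of the receptors and Smads, and DESeq2 called Smad7 alone, lower in Zpbp2 KO livers. Of 16 genes of the TGF-beta pathway, all tested, 0 were called by edgeR and 6 were above 0 (median log2 fold change -0.07). An unadjusted p below 0.05 by edgeR was found for 3 genes, all lower in Zpbp2 KO, beside 2.93% of all tested genes lower at that p. Smad7, the inhibitory Smad that TGF-beta itself induces, had 9.64, 8.84 and 12.0 CPM in Zpbp2 KO livers, against 16.1, 14.5 and 16.9 CPM in WT livers, without overlap. Its log2 fold change was -0.64 ± 0.147 (unadjusted p = 0.00225, adjusted p = 0.533 by edgeR), and DESeq2 called it (adjusted p = 0.0380). Furin, the protease that matures TGF-beta, was the most abundant of the list, at 29.6 ± 1.69 CPM per kilobase in Zpbp2 KO and 30.3 ± 2.10 CPM per kilobase in WT livers.

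Over all 8 lists together, 71 of 97 genes were tested and 0 were called by edgeR, while DESeq2 called 2, Irs2 and Smad7, beside 76 (0.518%) of all genes to which it gave an adjusted p. Of those tested, 1 was higher and 7 were lower with an unadjusted p under 0.05, 11.3% in sum, beside 5.79% of all tested genes, and 12.7% had no overlap between the groups, beside 11.6%. The median log2 fold change was -0.03.

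The genes whose level followed that of a signalling gene most closely over the 6 livers were sought among 11309 tested genes of at least 1 CPM by Pearson's r of log2 CPM. They were Slc10a5 and Pcgf3 for Il33 (r = 0.996 and 0.995), Etv5 and Pigt for Il4ra (0.980 and 0.978), Tesk2 and Pola2 for Il13ra1 (0.992 and 0.986), and Adap1 and Akr1b10 for Il2rg (0.999 and 0.988). Those given for the others were Iqsec1 for Stat6 (0.995), for Tgfb1 Ksr1 and Eif4h (0.996 and 0.993), and for Gsdmd Ahnak and Dolk (0.982 and 0.980). Spearman's rho was 0.771 for both genes given for Gsdmd and at least 0.943 for the others. Without the 2 livers farthest from the median, r was 0.704 for Dolk and 0.896 to 0.998 for the others. These are descriptions with no test, since the genes were picked for the value. Over 6 livers such values are common, with 21 candidates at an r of 0.9 or more for Il13ra1 and 352 for Il33.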

How the data were processed

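Raw counts per Ensembl gene, not normalized, were deposited for 6 liver libraries, which were poly(A) selected, made with a directional kit and sequenced from both ends per the labels' protocols. STAR, Picard, HTSeq and the build mm9 are named per the submitters' processing notes. Their versions, the annotation and the strand setting are not given in any source used. Columns were matched to samples by title. Symbols came from a table that pairs mouse Ensembl IDs with names (32919 of 37991 IDs, 86.6%), and merged exon lengths from GENCODE M21 (GRCm38). Coordinates and promoter letters are RefSeq's for GRCm38.p6.

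Genes were kept by filterByExpr (minimum count of 10) and scaled by TMM, and Zpbp2 KO was compared with WT by edgeR 4.0.16 (R 4.3.3), quasi-likelihood F-test, two-sided, no covariate, Benjamini-Hochberg over 14686 genes. The labels name 3 males per genotype. CPM uses TMM-scaled sizes, except that values with a Poisson interval and the limit for a count of 0 use library totals. Errors are SD over 3 livers or the SE of the fit. Alternatives were DESeq2 1.42.0, limma-voom (limma 3.58.1), other scalings and filters, a robust fit, a replicate block and each library left out. The fits were tested on simulated counts. Replicates differed by far more than sampling noise (chi-square of 18.7 to 94.9 per gene). From each list the text names called genes, or else the 2 with the smallest p, the most abundant gene and genes at 0. All others were named after their values were seen, and 2 genes that the rules pick are not reported here. The members, lists and rules were chosen with earlier results of these data known.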

Additional observations from a re-analysis of the deposited data

How the results depend on the processing

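For the 7 tested signalling genes, 98 log2 fold changes were recomputed under 14 alternatives. None crossed the threshold, 95 kept their sign, and 3 turned it: Il4ra without WT replicate 2, and Tgfb1 without Zpbp2 KO replicate 2 (0.22) or without WT replicate 1 (0.14). With 1 library left out at a time, Il4ra ran from -0.18 to 0.013 and Tgfb1 from -0.36 to 0.22. The count of signalling genes called was 0 throughout, and 0 of the 9 reached the smallest permutation p under TMM, DESeq2's size factors or library totals. The count of all genes called, 2 by edgeR, was 76 with DESeq2 and 12 with no filter on low counts, and ran from 2 to 4 with 1 library left out, the highest without Zpbp2 KO replicate 2. The cause was not tested. With the replicate block 2 genes were called in all and 0 of the signalling genes. Deviations of same-numbered livers from their group means correlated at 0.14, 0.20 and -0.24, without a common sign. With 3 livers per group these values cannot decide whether the numbers pair livers. Depth limits Il1rl1 and Gata3, which had at most 15 counts a library.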
